A study of Homo sapiens with 12 samples.

Results

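Gene expression was compared between neural crest cells sorted by a SOX10 reporter and unsorted neuroepithelial cells, both made from the human embryonic stem cell line H9 and both collected at day 11 of differentiation. The comparison used 6 of the 12 Illumina HT-12 bead arrays of a study of neural crest induction, chosen by their titles, and covered the 11280 genes that could be tested. The group called sox10-NC came from H9 cells carrying sox10::GFP, a green fluorescent protein reporter of SOX10, which were induced with Wnt, sorted for GFP and profiled on 3 arrays. The group called LSB came from H9 cells with no reporter or induction given in the labels, was described as neuroepithelial and not sorted, and was likewise profiled on 3 arrays. The titles number the 3 arrays of each group as biological replicates, but nothing says whether they came from separate cultures. The tests therefore measure the spread between samples, estimated over all 12 arrays of the study. Both groups come from 1 cell line. Induction, sorting and reporter genotype differed together between the groups, so their effects cannot be told apart.

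The neural crest arises at the border of the neural plate, where Wnt, BMP and FGF signals induce border factors and then specifier factors such as SOX10, FOXD3 and the AP-2 proteins. Crest cells leave the dorsal neural tube by an epithelial to mesenchymal transition, migrate, and form peripheral neurons, Schwann cells, melanocytes and, in the head, cartilage and bone. The neuroepithelium of the central nervous system keeps epithelial junctions and expresses regional factors, with PAX6, LHX2, SIX3 and OTX2 marking its forebrain part.

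Levels below are normalised log2 intensities of 1 probe per gene, and differences are sox10-NC minus LSB. A gene was called higher or lower when its adjusted p in a limma fit of all 12 arrays was under 0.05, the difference was at least 2-fold and 2 or more arrays of the group with the greater level detected the probe. A group in which 0 of the 3 arrays detected a probe, at a detection p-value under 0.01, is called below background for that gene, and the fold is then given as a lower bound. A gene detected on 1 or 2 arrays of its dimmer group has a plain fold, though its level there is near background. Examples are ISL1 and NGFR in LSB, and ETV5 and CLDN10 in sox10-NC, each detected on 1 array of that group. Differences carry their standard error from the fit, with n = 3 arrays per group. The fit shares 1 estimate of spread per gene over the 4 groups. A wide spread in MS5-NC or NPC-NC, the other sorted groups, therefore also widens the standard error and raises the p-value. An array detected 14616 to 15423 probes in sox10-NC and 15604 to 16955 in LSB, and the number of arrays limits the precision. The sox10-NC arrays differed more among themselves than the LSB arrays, with a median standard deviation per gene of 0.306 against 0.221 on the log2 scale, and arrays 1 and 2 of sox10-NC stood furthest apart (Pearson correlation across genes 0.943).

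Of the 11280 genes, 2077 were called (18.4%), with 1102 higher in sox10-NC (9.77%) and 975 lower (8.64%). These shares are the background for the gene lists below. In 502 of the called genes 1 group was below background, LSB for 174 of the higher genes and sox10-NC for 328 of the lower ones. A difference of at least 3 on the log2 scale was reached by 71 higher and 81 lower genes. The median difference over all genes was -0.02. The plot of mean levels shows these genes as the upper and lower edges of a broad band of genes that were not called.

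**Figure D1:**
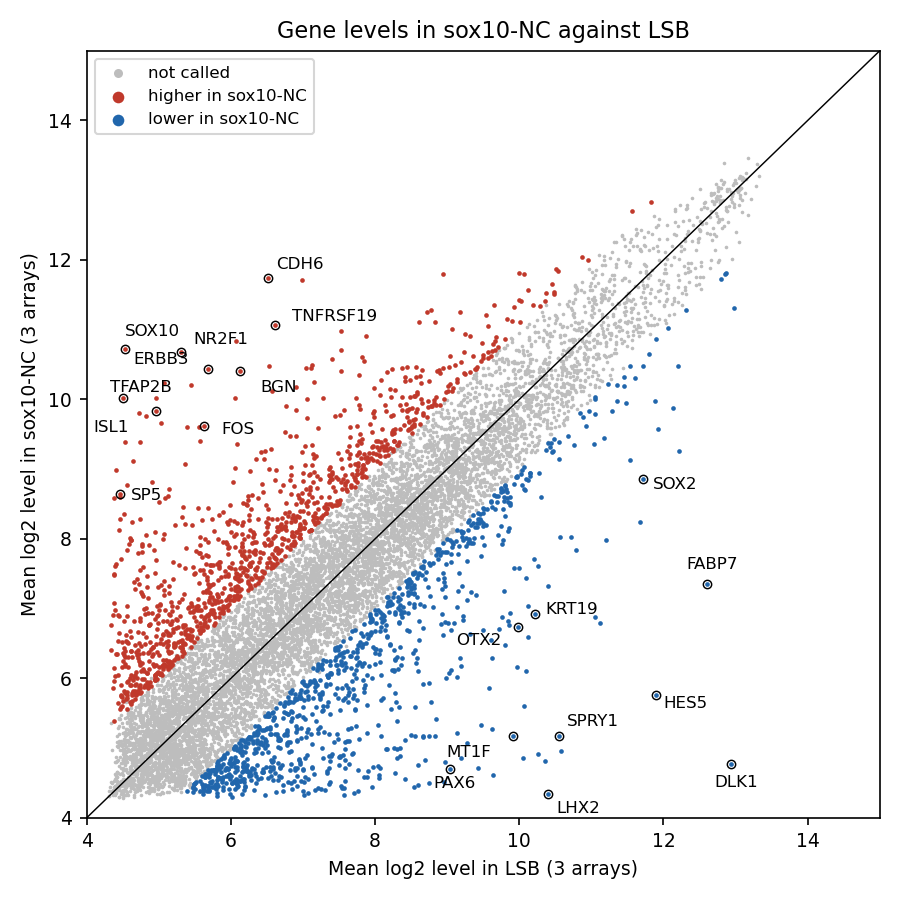
Mean log2 level of each of the 11280 genes tested in LSB (x axis, 3 arrays) and in sox10-NC (y axis, 3 arrays), with called genes in red (1102 higher in sox10-NC) and blue (975 lower), other genes in grey, the line of equal levels in black and 20 named genes circled. SOX10 and TFAP2B lie at the upper left, and DLK1, LHX2 and HES5 at the lower right.

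Marker genes of both cell types were set beside the labels. The lists were chosen with earlier results of these data known, and the crest markers include SOX10, whose reporter chose the cells. They are therefore no independent check of the labels. Crest genes outside the marker list include SOX9 and TWIST1, which were not called, and B3GAT1, which was lower. All 9 neural crest markers were detected on every sox10-NC array and were higher than in LSB, where SOX10, FOXD3, TFAP2B and PAX3 were below background. Of 8 neuroepithelial markers 7 were measured, all of them detected on every LSB array and lower in sox10-NC, where PAX6, LHX2, SIX3, RAX and HESX1 were below background. The summed log2 level of the crest markers was 12.60 to 13.03 on the sox10-NC arrays and 9.15 to 9.35 on the LSB arrays. That of the neuroepithelial markers was 8.12 to 8.28 and 12.73 to 12.90. The neuroepithelial marker SOX1 and the pluripotency factors POU5F1 and NANOG were detected on 0 of the 6 arrays and were not tested. In a sorted population set against an unsorted one, fewer cells of a type and less RNA per cell cannot be told apart.

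The neural crest specifier factors were higher as a group. Of 16 measured members 11 were higher in sox10-NC and 0 were lower, with a median log2 difference of 1.99, or 1.71 with genes below background at their bounds. SOX10, which drives migrating crest, glia and melanocytes, had log2 levels of 10.97, 10.51 and 10.70 on the sox10-NC arrays and 4.54, 4.38 and 4.67 on the LSB arrays. It was at least 45.6-fold higher (adjusted p = 4.26e-12). Because a reporter of this gene chose the cells, its difference is no independent finding. The AP-2 factor TFAP2B had levels of 9.92, 9.76 and 10.36 in sox10-NC and 4.37, 4.49 and 4.63 in LSB, at least 27.8-fold higher (adjusted p = 5.79e-12). Its relative TFAP2A, an early activator of crest genes, had levels of 9.78, 9.23 and 9.81 against 4.86, 5.73 and 6.10, and was 16.5-fold higher (log2 4.04 ± 0.37, adjusted p = 1.58e-07). For each of these genes the 3 sox10-NC arrays all lay above the 3 LSB arrays.

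Among the other specifiers, NR2F1, a COUP-TF nuclear receptor active in cranial crest, had levels of 10.95, 10.35 and 10.74 in sox10-NC and 5.09, 5.05 and 5.77 in LSB, a 41.5-fold difference (log2 5.38 ± 0.52, adjusted p = 3.56e-07). SNAI2, the zinc finger repressor also called Slug, had 9.82, 9.16 and 9.10 against 6.23, 5.98 and 6.05, and was 9.67-fold higher (log2 3.27 ± 0.29, adjusted p = 1.34e-07). FOXD3, a forkhead factor of premigratory crest, had 7.36, 6.38 and 6.54 in sox10-NC, was below background in LSB, and was at least 2.92-fold higher (adjusted p = 4.68e-07). All 3 of its sox10-NC arrays detected the probe. ETS1, a factor of delaminating cranial crest, had 10.69, 10.25 and 10.38 against 8.19, 8.58 and 7.93, a 4.62-fold difference (log2 2.21 ± 0.34, adjusted p = 7.93e-05). A second ETS1 probe gave a wider gap, with a mean of 9.43 in sox10-NC and 4.46 in LSB, where it was below background.

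Of the other SoxE factors, SOX8 was called and SOX9 was not. SOX8 had levels of 9.49, 9.48 and 9.47 in sox10-NC and 7.13, 6.66 and 6.93 in LSB, 5.96-fold higher (log2 2.58 ± 0.27, adjusted p = 7.39e-07). SOX9, which promotes crest formation and later cartilage, was not called, with 7.70, 6.98 and 6.69 against 7.35, 6.89 and 7.71 (log2 -0.19 ± 0.30, adjusted p = 0.661). The groups overlapped for SOX9 and lay far apart for SOX8 and SOX10.

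The same crest genes were set beside the other sorted groups of the study in direct contrasts, which use the same 3 sox10-NC arrays. MS5-NC was induced on a feeder layer of MS5, which are mouse stromal cells, and collected at day 35. NPC-NC was induced without feeders and collected at day 18, and both groups were sorted for HNK1 and p75. Of the 16 specifier factors, 12 were higher and 1 lower in sox10-NC than in MS5-NC (6.57% and 10.8% of all genes were called that way), and 12 were higher and 1 lower than in NPC-NC (4.73% and 9.31% of all genes). The lower member was SOX9 in both contrasts, with differences of -2.42 ± 0.30 from MS5-NC (adjusted p = 6.28e-06) and -2.32 ± 0.30 from NPC-NC (adjusted p = 1.23e-05). SOX9 was also higher in MS5-NC and NPC-NC than in LSB (log2 2.22 and 2.12). SOX10 and TFAP2B were below background in both of these groups. CDH6, EDNRB and SOX8 were detected in all 4 groups and highest in sox10-NC, with differences of 3.57, 1.67 and 2.38 from MS5-NC and 3.63, 1.82 and 1.39 from NPC-NC (largest adjusted p = 0.000792, for SOX8 against NPC-NC). The forebrain factors took the opposite course, with 16 of 20 lower in sox10-NC than in MS5-NC and 15 of 20 lower than in NPC-NC.

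**Figure D2:**
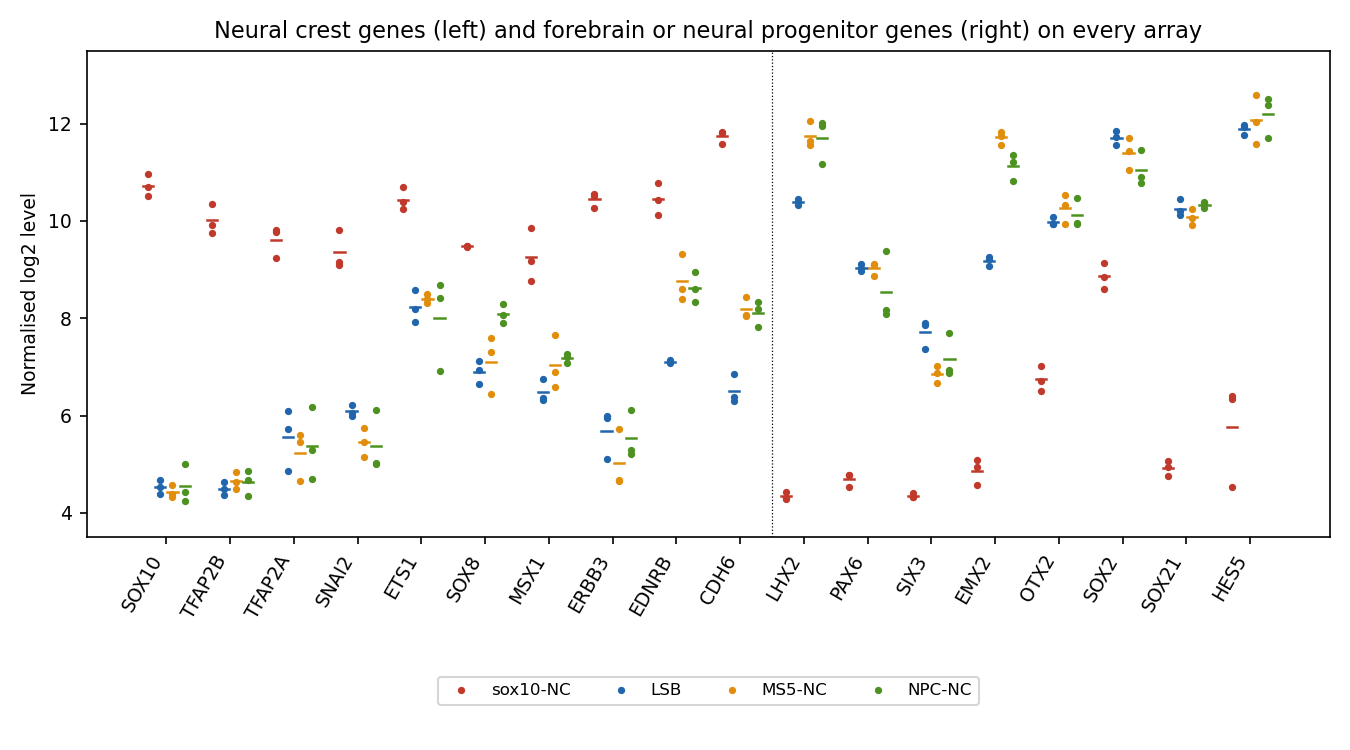
Normalised log2 level (y axis) of 10 neural crest genes, left of the dotted line, and 8 forebrain or neural progenitor genes, right of it, on all 12 arrays. Each point is 1 array, bars are the means of 3 arrays and colours mark the 4 groups. The sox10-NC points lie above all other groups for the crest genes shown, which leave out SOX9, and below them for the forebrain and progenitor genes.

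Neural plate border factors moved both ways. Of 11 measured members 3 were higher (MSX1, TFAP2C and PAX3) and 5 lower (HES4, ZIC2, DLX5, DLX3 and ZIC1), and the DLX3 and DLX5 calls ended without sox10-NC array 3. MSX1, a homeobox target of BMP signals, had levels of 9.17, 9.86 and 8.76 in sox10-NC and 6.75, 6.37 and 6.31 in LSB, 6.90-fold higher (log2 2.79 ± 0.30, adjusted p = 1.05e-06). ZIC2, a zinc finger factor active at the dorsal midline, had 7.18, 7.09 and 7.70 against 10.44, 10.09 and 10.67, 8.42-fold lower (log2 -3.07 ± 0.24, adjusted p = 2.6e-08). PAX3 had 6.75, 6.35 and 6.46 in sox10-NC, was below background in LSB and was at least 2.47-fold higher (adjusted p = 1.46e-05), but it was not called without background correction. Another PAX3 probe was not called, with means of 5.21 in sox10-NC and 5.07 in LSB (limma adjusted p = 0.759), while its remaining probes were called higher. The probe of MSX2 was detected on 2 sox10-NC arrays and on 0 LSB arrays, too few to be tested.

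Surface receptors of crest cells were higher for 13 of 16 measured members and lower for 1. ERBB3, the neuregulin receptor of crest and Schwann cell precursors, had levels of 10.56, 10.27 and 10.50 in sox10-NC and 5.98, 5.11 and 5.96 in LSB, 27.1-fold higher (log2 4.76 ± 0.32, adjusted p = 3.96e-09). EDNRB, the endothelin receptor needed for melanocyte and enteric precursors, had 10.78, 10.43 and 10.13 against 7.11, 7.14 and 7.08, 10.1-fold higher (log2 3.34 ± 0.26, adjusted p = 2.6e-08). GFRA1, the GDNF co-receptor of enteric precursors, had 9.10, 9.96 and 9.75 against 4.96, 6.02 and 5.22, 18.5-fold higher (log2 4.21 ± 0.37, adjusted p = 1.17e-07). Receptors of semaphorins and VEGF, which steer crest streams, were also higher. NRP2 was 8.89-fold higher (log2 3.15 ± 0.24, adjusted p = 2.04e-08) and NRP1, below background in LSB, at least 3.92-fold higher (adjusted p = 7.12e-06).

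The antigens commonly used to sort crest cells parted. NGFR, which encodes p75, had levels of 7.44, 6.47 and 6.43 in sox10-NC and 4.51, 4.96 and 5.16 in LSB, 3.75-fold higher (log2 1.91 ± 0.28, adjusted p = 4.96e-05). B3GAT1, the glucuronyltransferase that makes the HNK1 epitope, was the lower member of the list, below background in sox10-NC and at 6.27, 6.74 and 7.12 in LSB, at least 2.49-fold lower (adjusted p = 1.74e-05). Neither gene was called without background correction. The sox10-NC cells were sorted by neither antigen.

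Cadherins moved both ways. Of 13 measured cadherins and protocadherins 2 were higher and 4 lower. CDH6, the cadherin of premigratory crest, had levels of 11.81, 11.84 and 11.59 in sox10-NC and 6.86, 6.30 and 6.38 in LSB, 37.6-fold higher (log2 5.23 ± 0.23, adjusted p = 1.44e-11). A second CDH6 probe was also called higher but gave a narrower gap, with means of 5.96 in sox10-NC and 4.60 in LSB, where it was below background. CDH1, which encodes E-cadherin, had 5.21, 6.75 and 5.47 against 7.72, 8.05 and 7.76, 4.09-fold lower (log2 -2.03 ± 0.40, adjusted p = 0.000832). CDH11, a mesenchymal cadherin that is known in frog crest migration, had 6.12, 5.76 and 6.13 against 8.98, 9.01 and 8.98, 7.93-fold lower (log2 -2.99 ± 0.36, adjusted p = 5.42e-06), and CDH10 was 10.2-fold lower. CDH2, the neural N-cadherin, was not called, with 10.55, 11.40 and 11.46 against 11.32, 11.30 and 11.58 (log2 -0.27 ± 0.25, adjusted p = 0.446).

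Regulators of the epithelial to mesenchymal transition were called for 3 of 10 measured members, SNAI2 and ZEB2 higher and CDH1 lower. ZEB2, a repressor of E-cadherin, had levels of 9.10, 8.43 and 8.24 in sox10-NC and 6.37, 6.21 and 6.56 in LSB, 4.62-fold higher (log2 2.21 ± 0.31, adjusted p = 3.2e-05). TWIST1, which acts in cranial mesenchyme, was not called, with 5.28, 5.47 and 6.51 in sox10-NC and no detection in LSB (adjusted p = 0.24). VIM, the intermediate filament of both progenitors and mesenchyme, missed the 2-fold limit with its brightest probe (log2 0.76 ± 0.23, adjusted p = 0.0147), whereas another VIM probe was called higher, with means of 12.15 and 10.91.

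Epithelial genes were lower as a group. Of 15 measured members 14 were lower in sox10-NC and 0 were higher, with a median log2 difference of -2.03, or -1.30 with genes below background at their bounds. KRT19, a keratin of simple epithelia, had levels of 6.17, 7.89 and 6.73 in sox10-NC and 10.33, 10.18 and 10.15 in LSB, 9.80-fold lower (log2 -3.29 ± 0.33, adjusted p = 4.68e-07). EPCAM, an epithelial adhesion molecule, had 5.48, 7.07 and 5.52 against 9.13, 9.23 and 9.04, 8.64-fold lower (log2 -3.11 ± 0.32, adjusted p = 6.51e-07), and KRT8 was 5.80-fold lower. On the KRT19, EPCAM and CDH1 probes sox10-NC array 2 was the highest of its group, yet below every LSB array. MS5-NC and NPC-NC were also lower than LSB for KRT19 (log2 -2.77 and -2.09), EPCAM (-2.21 and -2.08) and CDH1 (-2.76 and -3.33). Against MS5-NC 4 of the 15 members were lower in sox10-NC and 0 higher (10.8% and 6.57% of all genes). Against NPC-NC 7 were lower and 1, CDH1, was higher (9.31% and 4.73% of all genes). Without background correction 6 of the epithelial genes were called lower, in place of 14. Among gap and tight junction genes 4 of 14 were lower and 0 higher, all of them claudins, with CLDN10 9.97-fold lower (log2 -3.32 ± 0.24, adjusted p = 6.82e-09).

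The matrix list gained members. Of 27 measured collagens and matrix proteins 10 were higher and 1 was lower, with a median log2 difference of 0.77, or 0.47 with genes below background at their bounds. BGN, the proteoglycan biglycan, had levels of 10.48, 10.50 and 10.24 in sox10-NC and 6.18, 6.08 and 6.12 in LSB, 19.4-fold higher (log2 4.28 ± 0.53, adjusted p = 6.17e-06). COL1A1, a chain of fibrillar collagen I, had 8.57, 8.37 and 8.44 against 5.24, 5.33 and 5.44, 8.70-fold higher (log2 3.12 ± 0.29, adjusted p = 1.82e-07). COL6A1 and COL18A1, chains of beaded-filament and basement membrane collagens, were 6.67-fold and 6.64-fold higher. COL4A6, a basement membrane collagen IV chain, was 2.15-fold lower (log2 -1.11 ± 0.24, adjusted p = 0.00167), a call that ended without background correction and on leaving out 1 sox10-NC array (array 2). Of 17 integrins and laminins 4 were higher, with ITGA4, the integrin chain that binds fibronectin and VCAM1, at 4.68-fold (log2 2.23 ± 0.27, adjusted p = 5.23e-06) and LAMB1 at 2.74-fold. ITGB5 was 6.29-fold lower (log2 -2.65 ± 0.27, adjusted p = 4.91e-07).

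Of 17 measured genes of mesenchyme and smooth muscle 5 were lower and 1 was higher, and the contractile genes ACTG2, TPM2 and CALD1 were not called. TPM1, a tropomyosin, had levels of 8.97, 9.04 and 9.76 in sox10-NC and 12.09, 12.30 and 12.25 in LSB, 7.76-fold lower (log2 -2.96 ± 0.28, adjusted p = 2.88e-07). TAGLN, an actin-binding protein of smooth muscle, was 6.46-fold lower (log2 -2.69 ± 0.24, adjusted p = 1.42e-07) and MYL9, a myosin light chain, 3.18-fold lower. ALX1, a homeobox factor of frontonasal mesenchyme, was the higher member, with 8.15, 5.96 and 6.63 against 4.79, 4.87 and 5.33 (log2 1.92 ± 0.41, adjusted p = 0.00151), and was not called without background correction. In the mesenchyme marker list of 6 genes COL1A1 alone was called, while LUM, DCN and TWIST1 were not, and PRRX1 was below background in both groups.

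Forebrain and eye field factors were lower throughout the called members. Of 20 measured members 15 were lower in sox10-NC and 0 were higher, with a median log2 difference of -2.72, or -2.30 with genes below background at their bounds. LHX2, a selector of cortex and eye field, had levels of 4.31, 4.43 and 4.29 in sox10-NC and 10.34, 10.38 and 10.46 in LSB, at least 32.0-fold lower (adjusted p = 4.98e-12). SP8, a zinc finger factor of the anterior telencephalon, was at least 25.2-fold lower (adjusted p = 4.98e-12), EMX2, a cortical patterning factor, at least 13.9-fold lower (adjusted p = 1.35e-10) and PAX6 at least 12.5-fold lower (adjusted p = 2.54e-09). OTX2, which defines forebrain and midbrain, was still detected, with 7.01, 6.51 and 6.71 against 9.94, 9.93 and 10.08, 9.46-fold lower (log2 -3.24 ± 0.24, adjusted p = 1.02e-08). TLE4, a Groucho corepressor, was 15.8-fold lower (log2 -3.98 ± 0.25, adjusted p = 1.79e-09). The LSB arrays lay within 0.20 of each other for LHX2, PAX6 and OTX2.

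Neural progenitor genes were lower for 8 of 18 measured members and higher for 0. HES5, a Notch effector of radial glia, had levels of 4.53, 6.40 and 6.34 in sox10-NC and 11.93, 11.77 and 11.97 in LSB, 70.2-fold lower (log2 -6.13 ± 0.39, adjusted p = 2.27e-09). FABP7, a fatty acid binding protein of radial glia, had 7.44, 6.89 and 7.74 against 12.34, 12.49 and 12.97, 37.8-fold lower (log2 -5.24 ± 0.25, adjusted p = 4.03e-11). SOX21 and SOX3, which act with SOX2 in progenitors, were at least 29.0-fold (adjusted p = 4.26e-12) and at least 10.3-fold lower (adjusted p = 2.87e-09). SOX2 itself remained on all 3 sox10-NC arrays, with 8.61, 8.84 and 9.15 against 11.85, 11.73 and 11.56, 7.19-fold lower (log2 -2.85 ± 0.25, adjusted p = 1.06e-07). PROM1, the progenitor surface protein CD133, was at least 14.7-fold lower (adjusted p = 2.74e-10).

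Position along the body axis could be read from few probes. Of 39 HOX genes looked up 29 had a probe, 3 were tested and 0 were detected on 2 or more sox10-NC arrays, while HOXC6 was detected on 2 LSB arrays. HOXB2, a hindbrain gene, was below background in both groups. In the wider list of HOX and cofactor genes, 2 of 7 measured members were lower, the cofactors MEIS2, 2.14-fold lower (log2 -1.10 ± 0.23, adjusted p = 0.00148), and MEIS1, below background in sox10-NC and at least 2.62-fold lower (adjusted p = 2.52e-05). Both calls ended without background correction, and the MEIS2 call also without sox10-NC array 1.

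Pluripotency genes were lower for 3 of 10 measured members and higher for 0, and SOX2 was one of the 3. The count of lower members was 2 without sox10-NC array 2 or 3 and without any 1 LSB array. LIN28A, an RNA-binding protein of pluripotent and early neural cells, was high in both groups and not called, with 11.68, 11.41 and 11.60 in sox10-NC and 12.02, 11.94 and 11.88 in LSB (log2 -0.38 ± 0.58, adjusted p = 0.655). The 2 groups did not overlap, with standard deviations of 0.14 and 0.07, but the shared estimate of spread took in MS5-NC, with 1.96. Against the later sorted groups LIN28A differed, with means of 7.21 in MS5-NC and 8.0 in NPC-NC (log2 4.35 and 3.56 higher in sox10-NC, adjusted p = 1.54e-05 and 0.000167).

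Genes of several crest derivatives were higher, those of sensory neurons among them. Of 11 measured sensory neuron genes 6 were higher and 1 was lower, with a median log2 difference of 1.82. POU4F1, the sensory homeobox factor also called BRN3A, had levels of 8.82, 10.81 and 10.44 in sox10-NC and 4.64, 5.10 and 5.16 in LSB, 33.4-fold higher (log2 5.06 ± 0.44, adjusted p = 9.44e-08). ISL1, a LIM homeobox factor of sensory and autonomic neurons, had 8.64, 10.55 and 10.31 against 4.81, 5.39 and 4.67, 29.4-fold higher (log2 4.88 ± 0.43, adjusted p = 1.08e-07). NEUROG1, a proneural factor of sensory precursors, had 7.83, 8.78 and 8.48, was below background in LSB and was at least 8.86-fold higher (adjusted p = 7.2e-09). Its relative NEUROG2 was the lower member, 2.62-fold (log2 -1.39 ± 0.30, adjusted p = 0.0016), a call that ended without background correction and with a background offset of 50 and in a treat test against 1.5-fold. On the POU4F1, ISL1 and NEUROG1 probes sox10-NC array 1 was the lowest of its group and still above every LSB array.

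Of 28 pan-neuronal genes 11 were higher and 4 lower. ONECUT2, a homeobox factor of early neurons, had levels of 7.07, 8.33 and 7.90 in sox10-NC and 5.63, 6.0 and 5.35 in LSB, 4.30-fold higher (log2 2.11 ± 0.32, adjusted p = 7.53e-05). SYT1, the calcium sensor of synaptic vesicles, went the other way, below background in sox10-NC and at 7.27, 7.42 and 7.52 in LSB, at least 4.02-fold lower (adjusted p = 4.87e-07). Without sox10-NC array 1 there were 15 higher pan-neuronal genes, and without array 2 there were 8. Autonomic and enteric genes were higher for 2 of 5 measured members, INSM1, a zinc finger factor of sympathoadrenal cells, at 11.4-fold (log2 3.51 ± 0.37, adjusted p = 8.78e-07) and CHGB, a secretory granule protein, at 4.12-fold (log2 2.04 ± 0.45, adjusted p = 0.00206). Among the 6 neuron markers, 5 were measured and detected on all 6 arrays, and 4 were higher, with a summed log2 level of 11.45 to 12.92 on the sox10-NC arrays and 11.13 to 11.32 on the LSB arrays. Whether neurons in the sorted fraction account for the neuronal genes was not tested.

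Genes of Schwann cell and glial precursors were higher for 7 of 12 measured members and lower for 3, and SOX10, ERBB3 and FOXD3 of the crest lists were among the higher ones. GFRA3, the artemin co-receptor, had 7.89, 8.09 and 8.06 in sox10-NC, was below background in LSB and was at least 6.96-fold higher (adjusted p = 5.13e-09). SCRG1 was 4.44-fold higher (log2 2.15 ± 0.26, adjusted p = 5.79e-06). MBP, a myelin protein, was below background in sox10-NC and at least 1.23-fold lower (adjusted p = 0.000317), and FABP7 was lower as given above. The MBP call ended without background correction. Of the 5 Schwann cell precursor markers FABP7 alone was measured, CDH19 was detected on 1 sox10-NC array and S100B on 0 arrays.

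Melanocyte genes were higher for 6 of 9 measured members and lower for 0, but for 3 without sox10-NC array 2. MITF, the master regulator of melanocytes, had levels of 7.46, 7.12 and 6.65 in sox10-NC and 4.41, 4.37 and 4.36 in LSB, below background, and was at least 3.63-fold higher (adjusted p = 7.1e-08). EDNRB and PAX3, given above, belong to the same list. PMEL, a melanosome protein, was bright in both groups, with 11.53, 11.89 and 11.21 against 10.39, 10.67 and 10.37 (2.10-fold higher, log2 1.07 ± 0.35, adjusted p = 0.0262), and its call ended without sox10-NC array 1 or 2 and without LSB array 1 or 3.

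**Figure D3:**
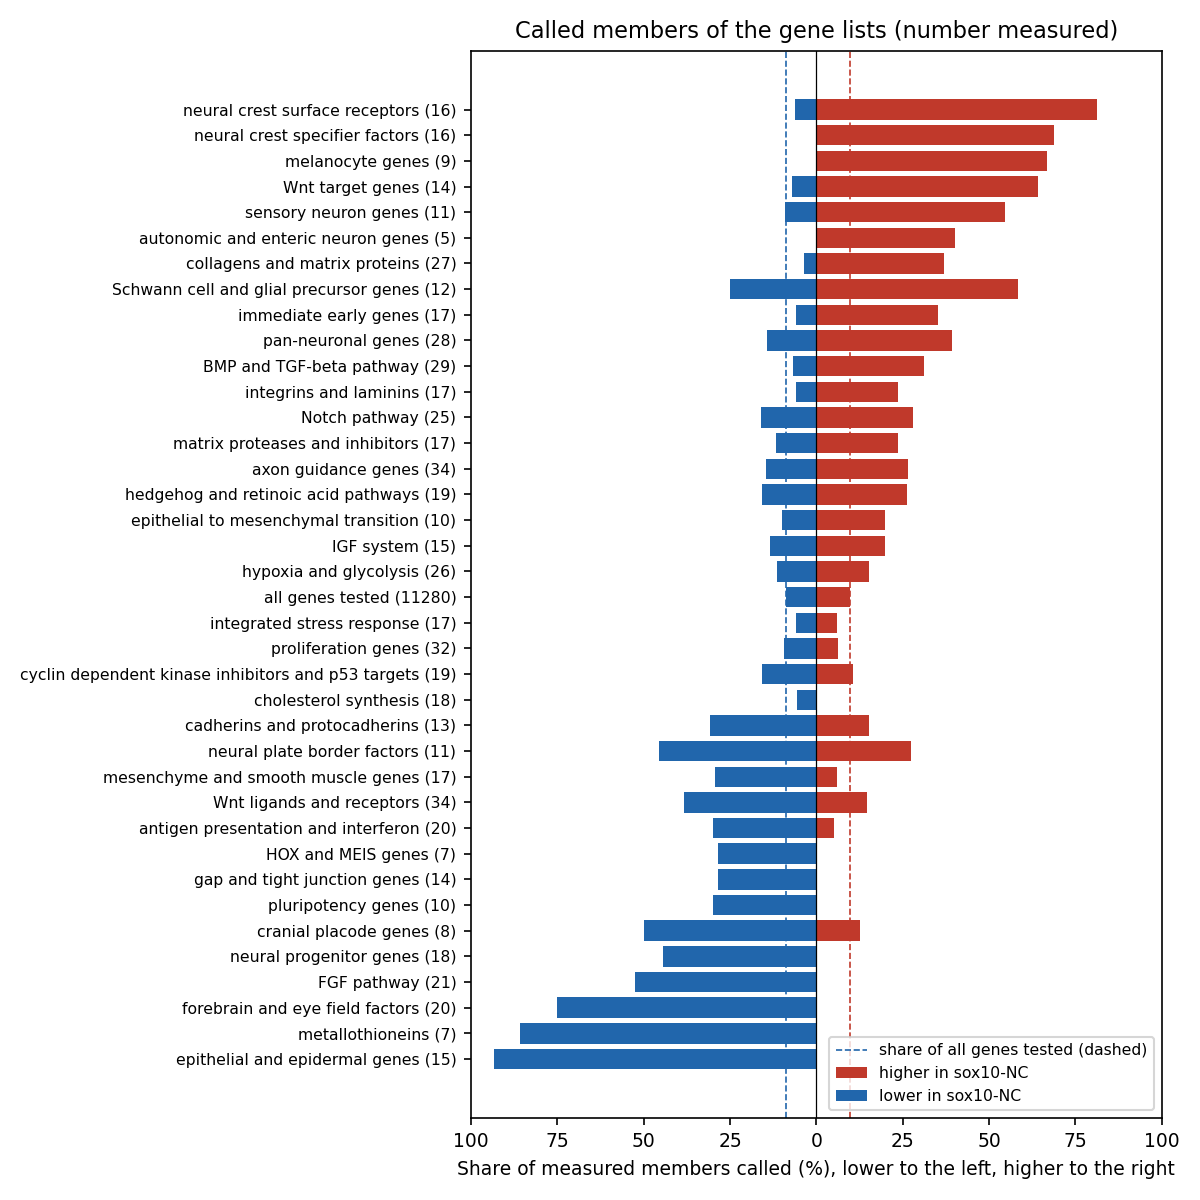
Share of the measured members of each gene list that were called lower (blue, to the left) or higher (red, to the right) in sox10-NC than in LSB, with the number measured in parentheses, for lists with at least 5 measured members. Dashed lines mark the shares over all 11280 genes (9.77% higher, 8.64% lower). Crest receptors and specifiers, melanocyte genes and Wnt targets lie at the top, and FGF pathway, forebrain, metallothionein and epithelial genes at the bottom.

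Wnt signals stabilise beta-catenin, which acts with TCF and LEF factors on feedback genes such as NKD1 and on SP5. Of 14 measured Wnt target genes 9 were higher in sox10-NC and 1 was lower, with a median log2 difference of 1.81, or 1.51 with genes below background at their bounds. TNFRSF19, a receptor also called TROY, had levels of 11.13, 10.98 and 11.07 in sox10-NC and 6.20, 6.78 and 6.86 in LSB, 21.8-fold higher (log2 4.45 ± 0.29, adjusted p = 3e-09). Its second probe, also called higher, gave a narrower gap, with means of 6.21 in sox10-NC and 4.57 in LSB, where it was below background. SP5, a zinc finger repressor, had 8.61, 9.06 and 8.26, was below background in LSB and was at least 10.8-fold higher (adjusted p = 3.51e-10). NKD1, an inhibitor of Dishevelled, was at least 8.37-fold higher (adjusted p = 4.02e-08), and LEF1 was 7.67-fold higher (log2 2.94 ± 0.24, adjusted p = 4.69e-08). SP8, the lower member, is also the forebrain factor given above. The Wnt target count was 9 higher without each of the 6 arrays in turn. SP5 was also below background in MS5-NC and NPC-NC.

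The promoter of SP5 (RefSeq, GRCh38.p14, chr2:170715087-170715386, plus strand, 250 bases before to 50 after the gene start) is shown because the SP5 signal was below background outside sox10-NC. Capitals mark the letters CTTTGAT, a core TCF and LEF sequence, searched on both strands and found in 2.62% of 35116 promoter windows of the same length. Among the 13509 windows of tested genes the share was 1.72%.
SP5: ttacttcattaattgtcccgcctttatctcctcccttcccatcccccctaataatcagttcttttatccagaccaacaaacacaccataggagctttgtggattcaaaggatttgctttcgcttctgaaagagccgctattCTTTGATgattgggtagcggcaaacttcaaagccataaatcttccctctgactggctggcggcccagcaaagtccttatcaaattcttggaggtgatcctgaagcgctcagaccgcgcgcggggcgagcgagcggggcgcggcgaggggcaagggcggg
The window of SP5 held 1 match, and those of LEF1, TNFRSF19, APCDD1 and NKD2 held 0.

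Wnt ligands, receptors and antagonists shifted the other way, with 13 of 34 measured members lower and 5 higher, or 3 higher without LSB array 1. FRZB, a secreted Wnt antagonist, had levels of 6.77, 6.51 and 7.07 in sox10-NC and 11.36, 10.80 and 11.19 in LSB, 20.1-fold lower (log2 -4.33 ± 0.30, adjusted p = 4.45e-09). The antagonist SFRP1 was 5.79-fold lower (log2 -2.53 ± 0.33, adjusted p = 1.35e-05) and the receptor FZD8 at least 4.35-fold lower (adjusted p = 4.38e-05). The noncanonical ligands crossed over. WNT5A had 7.41, 8.31 and 8.01 in sox10-NC, was below background in LSB and was at least 6.49-fold higher (adjusted p = 1.98e-07), while WNT5B was below background in sox10-NC, had 8.32, 7.96 and 8.53 in LSB and was at least 7.34-fold lower (adjusted p = 2.54e-09). ROR1, a receptor of WNT5A, was 6.86-fold higher (log2 2.78 ± 0.28, adjusted p = 6.42e-07).

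FGF pathway genes were lower for 11 of 21 measured members and higher for 0, with a median log2 difference of -1.31, or -1.14 with genes below background at their bounds. FGF8, the ligand of the anterior neural ridge, had levels of 4.42, 4.52 and 4.59 in sox10-NC and 8.79, 9.02 and 9.05 in LSB, at least 11.8-fold lower (adjusted p = 8.61e-06). Several targets and feedback inhibitors of FGF signals were also lower, while DUSP5, SPRED1, SPRED2, ETV1 and IL17RD were not called. SPRY1, a Sprouty inhibitor of receptor signalling, was below background in sox10-NC, had 10.57, 10.44 and 10.65 in LSB and was at least 35.7-fold lower (adjusted p = 5.37e-11). DUSP6, an ERK phosphatase, was 7.84-fold lower (log2 -2.97 ± 0.38, adjusted p = 8.6e-06) and ETV5, an ETS factor induced by FGF, 12.7-fold lower (log2 -3.66 ± 0.38, adjusted p = 8.32e-07). FGF pathway genes were also lower in sox10-NC for 12 of 21 members against MS5-NC (10.8% of all genes) and 14 of 21 against NPC-NC (9.31% of all genes). FGF8 itself was not called against MS5-NC (adjusted p = 0.547), where it was detected on 1 array.

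Of 29 BMP and TGF-beta genes 9 were higher and 2 lower. BMP5, a ligand, had levels of 8.71, 7.91 and 7.97 in sox10-NC and 5.54, 4.95 and 5.17 in LSB, 7.87-fold higher (log2 2.98 ± 0.28, adjusted p = 1.94e-07). BAMBI, a decoy receptor, was 6.55-fold higher (log2 2.71 ± 0.38, adjusted p = 2.55e-05), and MSX1 was higher as given above. BMPR1B, a type I receptor, was below background in sox10-NC and at least 1.54-fold lower (adjusted p = 0.00129). Without background correction 3 members were called higher, in place of 9, and 0 lower, in place of 2.

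Notch genes moved both ways. Of 25 measured members 7 were higher and 4 lower. The receptors NOTCH1 and NOTCH3 were 4.83-fold (log2 2.27 ± 0.30, adjusted p = 1.56e-05) and 4.40-fold higher (log2 2.14 ± 0.26, adjusted p = 5.42e-06). HEYL, a Notch effector of neural crest and vascular cells in the mouse, had levels of 9.84, 10.28 and 9.93 in sox10-NC and 6.24, 5.68 and 6.26 in LSB, 15.5-fold higher (log2 3.96 ± 0.29, adjusted p = 8.94e-09), and HES6, which opposes HES repressors, was 5.66-fold higher. HES5 and HES4 were 70.2-fold and 9.28-fold lower. DLK1, a noncanonical Notch ligand encoded by an imprinted gene, had the widest gap of all genes named here, with 5.0, 4.82 and 4.48 in sox10-NC and 12.76, 12.65 and 13.41 in LSB, at least 187-fold lower (adjusted p = 1.41e-12). Its second probe was also below background in sox10-NC, with a mean of 4.45 against 11.91.

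Retinoic acid and hedgehog genes were called for 8 of 19 measured members, 5 higher and 3 lower. STRA6, which imports retinol, had levels of 7.22, 8.02 and 6.92 in sox10-NC, was below background in LSB and was at least 4.51-fold higher (adjusted p = 4.85e-07). The receptors RARA and RXRA were 3.56-fold (log2 1.83 ± 0.22, adjusted p = 4.28e-06) and 2.89-fold higher (log2 1.53 ± 0.23, adjusted p = 6.84e-05). Among enzymes that make or degrade retinoic acid, ALDH1A2, CYP26B1 and DHRS3 were not called, while 3 were lower, with ALDH1A1 2.15-fold lower (log2 -1.10 ± 0.28, adjusted p = 0.00559), ALDH1A3 at least 1.64-fold lower (adjusted p = 0.00271) and CYP26A1 at least 1.71-fold lower (adjusted p = 0.00336). These 3 genes were not called without background correction, and the ALDH1A1 call also ended without sox10-NC array 3 or LSB array 2.

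**Figure D4:**
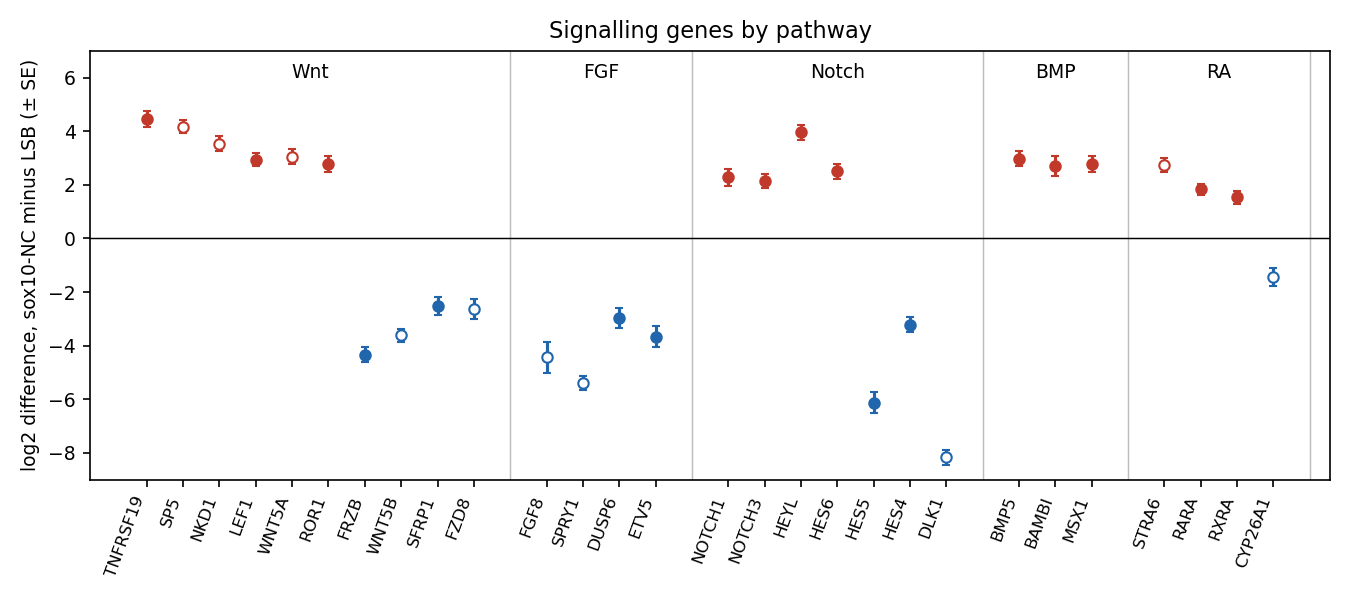
Log2 difference, sox10-NC minus LSB (y axis), with its standard error from the fit, for named genes of 5 signalling pathways (RA, retinoic acid). Red marks higher and blue lower genes, and open circles mark genes below background in 1 group, whose fitted difference is not a bound. All 4 FGF genes lie below 0, whereas the Wnt and Notch genes lie on both sides.

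Metallothioneins, small proteins that bind zinc and copper and are induced by metals through the factor MTF1, were lower for 6 of 7 measured members. MT1F had levels of 5.75, 4.95 and 4.81 in sox10-NC and 9.77, 10.08 and 9.91 in LSB, 26.9-fold lower (log2 -4.75 ± 0.29, adjusted p = 1.5e-09). MT1H was below background in sox10-NC, had 8.40, 8.71 and 8.52 in LSB and was at least 8.88-fold lower (adjusted p = 1.57e-10). MT1E and MT1G were 13.1-fold and 11.9-fold lower. The genes of this cluster are close in sequence, and how far their probes bind each other's transcripts was not tested. The other sorted groups were also low, with MT1H below background in both and MT1F at means of 6.11 in MS5-NC and 6.20 in NPC-NC. LSB was the unsorted group, so this difference cannot be told apart from sorting.

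The promoter of MT1H (RefSeq, GRCh38.p14, chr16:56669564-56669863, plus strand) is shown because the members moved together. Capitals mark TGCGCNC, the core of the metal response element, searched on both strands. It is present in 7012 of the 35116 windows, and at least 2 times in 5.52%. Among the 13509 windows of tested genes it is commoner, present in 28.8%.
MT1H: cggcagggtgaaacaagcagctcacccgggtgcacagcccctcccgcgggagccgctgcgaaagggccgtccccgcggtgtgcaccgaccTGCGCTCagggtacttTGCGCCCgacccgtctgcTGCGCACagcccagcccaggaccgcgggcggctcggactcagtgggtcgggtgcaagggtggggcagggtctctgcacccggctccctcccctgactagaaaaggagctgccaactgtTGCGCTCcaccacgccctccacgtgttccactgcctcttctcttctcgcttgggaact
The MT1H window held 4 matches, and the windows of MT1X and MT2A, the other lower members with an entry, held 2 each.

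Interferon and antigen presentation genes were lower for 6 of 20 measured members and higher for 1. IFIT1, an antiviral RNA-binding protein, had levels of 5.84, 4.69 and 4.98 in sox10-NC and 8.63, 8.45 and 8.91 in LSB, 11.3-fold lower (log2 -3.49 ± 0.32, adjusted p = 1.82e-07). ISG15, a ubiquitin-like modifier, had 7.06, 6.25 and 5.78 against 8.68, 8.49 and 8.40, 4.47-fold lower (log2 -2.16 ± 0.31, adjusted p = 3.65e-05). BST2, which tethers virions, was 10.8-fold lower (log2 -3.43 ± 0.53, adjusted p = 8.13e-05) and IFITM1, which blocks viral entry, 8.67-fold lower (log2 -3.12 ± 0.33, adjusted p = 8.72e-07). On all 4 probes sox10-NC array 1 was the highest of its group and lay below every LSB array. IRF9, the DNA-binding subunit of the interferon response complex, was the higher member, 2.31-fold (log2 1.21 ± 0.28, adjusted p = 0.00298), but not without LSB array 3, without background correction, with the offset at 50 or in the treat test.

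The promoters of IFIT1 (RefSeq, GRCh38.p14, chr10:89392373-89392672, plus strand) and ISG15 (chr1:1013247-1013546, plus strand) are shown because both genes were among the 6 lower members of this list. Capitals mark GAAA followed, after 2 bases of any kind, by GAAA again, the core of the interferon stimulated response element, searched on both strands. It occurs in 3.57% of the 35116 windows, and at least 2 times in 0.259%, and in 2.75% of the 13509 windows of tested genes.
IFIT1: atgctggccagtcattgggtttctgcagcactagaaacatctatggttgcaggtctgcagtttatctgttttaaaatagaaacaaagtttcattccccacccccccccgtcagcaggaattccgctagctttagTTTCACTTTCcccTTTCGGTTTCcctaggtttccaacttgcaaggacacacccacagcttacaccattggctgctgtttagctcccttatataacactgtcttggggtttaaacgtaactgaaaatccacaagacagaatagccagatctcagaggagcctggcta
ISG15: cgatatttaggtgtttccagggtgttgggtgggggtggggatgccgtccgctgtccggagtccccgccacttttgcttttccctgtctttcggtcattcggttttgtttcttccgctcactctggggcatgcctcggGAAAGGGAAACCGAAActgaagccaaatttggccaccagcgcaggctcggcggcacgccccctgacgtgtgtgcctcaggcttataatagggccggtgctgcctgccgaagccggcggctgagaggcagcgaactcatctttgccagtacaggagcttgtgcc
Each of the windows of IFIT1, ISG15, BST2 and IFITM1 held 2 matches, which overlap in ISG15 and BST2. Windows of the other list members, most of which were not called, were not looked at singly. Among them are TAP1 and PSMB8, the remaining lower members.

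Immediate early genes, which respond within minutes to growth factors and to handling of cells, were higher for 6 of 17 measured members and lower for 1. FOS, a subunit of AP-1, had levels of 8.87, 10.83 and 9.16 in sox10-NC and 5.85, 5.69 and 5.35 in LSB, 15.9-fold higher (log2 3.99 ± 0.41, adjusted p = 6.31e-07). EGR1, a zinc finger factor, had 9.84, 11.15 and 10.43 against 6.57, 6.41 and 6.62, 15.3-fold higher (log2 3.94 ± 0.40, adjusted p = 5.97e-07), and KLF6 was 4.65-fold higher. sox10-NC array 2 was the highest array for all 3 genes. FOS did not pass against the other sorted groups (adjusted p = 0.814 against MS5-NC and 0.363 against NPC-NC), whereas EGR1 was higher than in both (log2 1.27 and 1.55, adjusted p = 0.022 and 0.00835). The LSB cells were not sorted, so sorting and cell type cannot be told apart for this list.

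Among genes outside these lists, several had gains as wide as the crest factors. ECEL1, a neuronal metalloprotease, had levels of 10.39, 10.52 and 9.81 in sox10-NC and 5.23, 4.68 and 5.29 in LSB, 36.0-fold higher (log2 5.17 ± 0.27, adjusted p = 1.35e-10). INSC, an adaptor that orients the mitotic spindle, had 9.95, 9.61 and 9.84, was below background in LSB and was at least 24.0-fold higher (adjusted p = 1.06e-11). KANK4, a regulator of actin and adhesions, was 27.5-fold higher (log2 4.78 ± 0.35, adjusted p = 8.69e-09), and ACTC1, the cardiac actin, 26.4-fold higher (log2 4.72 ± 0.39, adjusted p = 4.28e-08). INSC and KANK4 were also above the other sorted groups, with differences of 4.95 and 4.26 from MS5-NC and 5.10 and 4.33 from NPC-NC. NTN5, of the netrin family, was at least 18.2-fold higher (adjusted p = 4.08e-09) and MEGF10, an engulfment receptor, at least 15.02-fold higher (adjusted p = 5.77e-09).

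Outside the lists, several secreted and signalling proteins were far lower. SHISA2, which holds back Wnt and FGF receptors in frog embryos, had levels of 5.06, 4.50 and 5.33 in sox10-NC and 10.39, 10.59 and 10.74 in LSB, at least 36.2-fold lower (adjusted p = 1.77e-10). PRSS23, a serine protease, was at least 31.1-fold lower (adjusted p = 4.98e-12) and DDIT4L, an inhibitor of mTOR, at least 18.9-fold lower (adjusted p = 6.75e-11). NELL2, a secreted glycoprotein of neural tissue, was 17.9-fold lower (log2 -4.16 ± 0.31, adjusted p = 1.39e-08), and GPC3, a glypican, was also lower (log2 -3.32 ± 0.24, adjusted p = 6.82e-09). All of these genes were detected on all 3 LSB arrays.

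Of 32 measured proliferation genes 2 were higher and 3 lower, or 15.6%, near the 18.4% of all genes called, and the median log2 difference was -0.23. There were 0 higher without sox10-NC array 2 or LSB array 2 and 1 without sox10-NC array 1, and 0 members were called either way without background correction. CDC25C, a mitotic phosphatase, was 2.31-fold lower (log2 -1.21 ± 0.29, adjusted p = 0.00365). Cholesterol synthesis genes had 0 higher and 1 lower of 18, and the integrated stress response 1 higher and 1 lower of 17. The cholesterol counts were 1 higher and 0 lower without sox10-NC array 1, and 2 higher and 1 lower without LSB array 1.

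The sox10-NC arrays differed among themselves in particular gene lists. Of 8348 genes detected on all 3 sox10-NC arrays, 1186 (14.2%) had a range of at least 1 on the log2 scale, against 216 of 8912 (2.42%) in LSB. The mean level of the hypoxia and glycolysis list was 9.86, 8.50 and 8.97 on sox10-NC arrays 1, 2 and 3 and between 8.75 and 9.19 on the LSB arrays. That of the pan-neuronal genes ran the other way, with 6.59, 7.72 and 7.28, and that of the sensory neuron genes with 6.59, 7.80 and 7.40. Array 1 was thus high for hypoxia and glycolysis genes and low for neuronal genes, and array 2 the reverse. The specifier list spread over 0.25 and the forebrain list over 0.13 among the same arrays.

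Single genes also had array 1 at the highest or lowest level, though HK2 was lowest on array 3 and not on array 2. The genes in this paragraph were chosen after their values were seen. PFKFB4, a glycolytic regulator, had 11.79, 8.47 and 9.15 on the sox10-NC arrays and 8.99, 9.0 and 9.66 on the LSB arrays. HK2, a hexokinase, had 10.01, 7.58 and 6.84 against 8.02, 8.20 and 8.09, and STMN2, a neuronal microtubule protein, 8.13, 10.80 and 10.42 against a mean of 9.90 in LSB. For each of these genes the LSB levels fell between the lowest and the highest sox10-NC level. Of 26 hypoxia and glycolysis genes 4 were higher and 3 lower, and there were also 4 higher without array 1 and 4 without array 2. ALDOC, a brain aldolase, had 10.73, 8.88 and 9.97 against 7.57, 7.90 and 7.91, 4.20-fold higher (log2 2.07 ± 0.37, adjusted p = 0.000367). The count of lower members was 7 without sox10-NC array 1 and 0 without array 2. The part of these arrays in the other differences between groups was not tested beyond leaving each out.

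**Figure D5:**
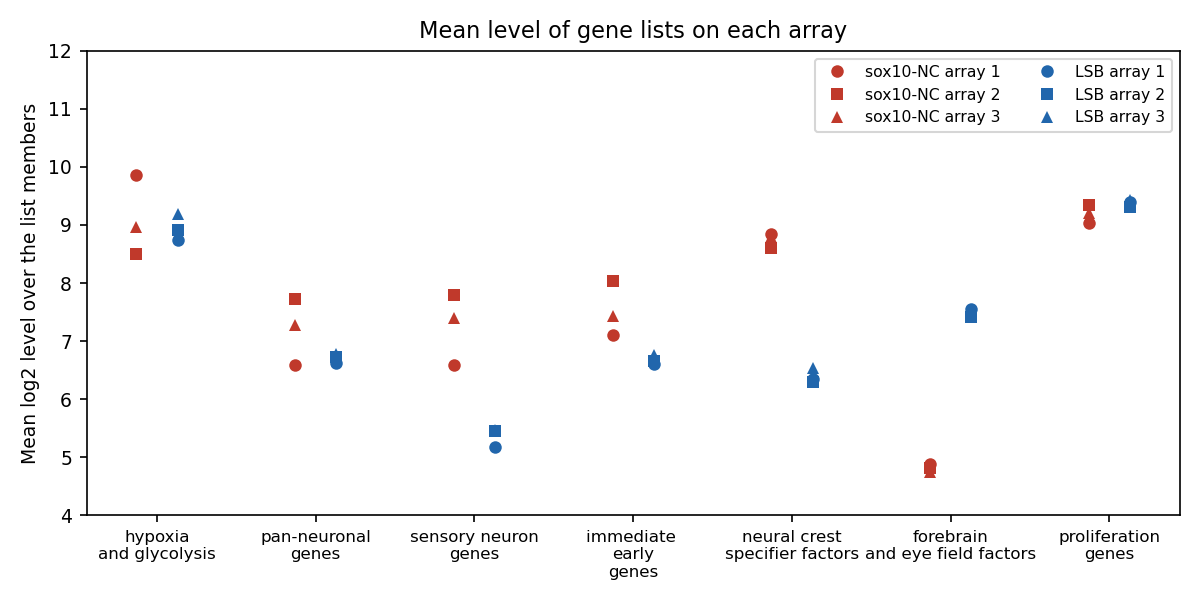
Mean log2 level over the measured members of 7 gene lists (y axis) on each of the 3 sox10-NC arrays (red) and 3 LSB arrays (blue), with marker shapes for arrays 1, 2 and 3. The sox10-NC arrays spread from 8.50 to 9.86 for hypoxia and glycolysis genes and from 6.59 to 7.72 for pan-neuronal genes, while they lie close together and away from LSB for specifier and forebrain factors.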

How the data were processed

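Total RNA was extracted with Trizol and labelled as biotinylated cRNA, per the labels' protocols, and GenomeStudio is named without a version in the submitters' processing notes. The deposited table holds, per the file headers, the mean bead intensity of 47322 probes on each array and a detection p-value, and it was neither background-corrected nor normalised. The authors also deposited a series matrix of processed intensity, whose steps are not given in the sources used here, and it served as an alternative. Standard errors over beads, 1 column per array, stayed out of the analysis.

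The function neqc (limma 3.58.1, R 4.3.3, offset 16) removed background, applied quantile normalisation and returned log2 levels, and it estimates background from the deposited detection p-values. A detection p-value under 0.01 on 3 or more of the 12 arrays left 18427 probes. The array annotation gave 1 gene for 30113 probes, several for 8 and none for 17201, and 30074 matched a RefSeq gene. The probe with the highest mean stood for a gene, and 2867 genes had several. All 12 arrays were fitted as 4 groups with lmFit and eBayes, two-sided, with Benjamini-Hochberg adjustment over 11280 genes, and the procedure was tested on simulated data. In a group below background a bound sets the bright group's mean over all 3 arrays against the dim group's mean of, per array, the lowest level that passed detection or the probe's own level, whichever was higher.

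Called genes with several kept probes numbered 507. In 0 of them another probe was called the opposite way, and in 23 another probe pointed the opposite way. Gene lists and genes were chosen with earlier results of these data known. Genes were named by a rule that takes a fixed panel, the widest and the most abundant calls, up to 3 called members per list and direction, and genes set apart from the other sorted groups. Replicate numbers are those of the titles. Deviations of samples with the same number did not correlate (-0.06, -0.04 and -0.01), so they do not pair samples. Slide and scan of the arrays are not given in the files. Alternatives covered background correction, normalisation, filters, probe choice, array weights, the fold limit, the replicate block and leaving out each array.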

Additional observations from a re-analysis of the deposited data

Results flagged for a closer look

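Probes to which the array annotation assigns no gene took no part in the gene tests, and some of them gave a signal in 1 group alone. There were 58 such probes detected on all 3 sox10-NC arrays and on 0 LSB arrays, and 150 detected on all 3 LSB arrays and on 0 sox10-NC arrays. Called genes leaned the same way, with LSB below background for 174 higher genes and sox10-NC for 328 lower ones. The LSB arrays also detected more probes in all, 15604 to 16955 against 14616 to 15423. The split is therefore not particular to these probes, and its share over all probes was not counted. Of the 3636 probes without a gene that passed the detection filter, 465 were called (12.8%, beside 18.4% of genes) in a limma fit at the limits used for genes. Of these 230 were higher and 235 lower in sox10-NC.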

How the results depend on the processing

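The number of called genes depended most on background correction. Without it 836 genes were called (476 higher, 360 lower, 56.9% of them higher), while raising the offset from 16 to 50 gave 1260 (707 higher, 553 lower), and over the called named genes the median fold was 0.568 and 0.698 times that given above. Requiring detection on all 6 arrays left 7771 genes and 1186 calls (715 higher, 471 lower, 60.3% higher against 53.1%), as fewer genes were tested, and a limma treat test against 1.5-fold gave 1109 (599 higher, 510 lower). Under median scaling, the series matrix values, the 6 arrays alone, no filter, probe means and array weights the count was 1985 to 2467. With the replicate number as a block there were 2084 calls, 2075 of them among the 2077, and no named gene changed its call. Leaving out 1 array in turn gave 1933 to 2243 called genes, 1002 to 1193 higher and 931 to 1050 lower, and 1435 called genes kept their call each time while 642 lost it at least once. Of 220 named genes 60 were no longer called without background correction. No called named gene changed direction under any alternative run, while 2 genes that were not called crossed 0, CDH2 at 0.03 without sox10-NC replicate 1 and SOX9 at 0.03 without sox10-NC replicate 3 and 0.00 without LSB replicate 3. Over the arrays left out in turn CDH2 ran from -0.43 to 0.03 and SOX9 from -0.48 to 0.03. For these values and for the lists that changed their counts, the cause was not tested. Signal over background limits genes near the detection limit, whose folds are bounds only where 0 arrays of the dimmer group detected the probe.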

Other observations

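Axon guidance genes, which also steer crest streams, were called for 14 of 34 measured members, 9 higher and 5 lower, beside 9.77% and 8.64% of all genes. SEMA3C, a secreted semaphorin, had levels of 7.80, 7.34 and 7.54 in sox10-NC, was below background in LSB and was at least 5.08-fold higher (limma adjusted p = 1.17e-07), and PLXNA1, a plexin receptor, was 3.64-fold higher (log2 1.86 ± 0.33, adjusted p = 0.000314). EPHA4, an ephrin receptor, had 5.82, 7.18 and 5.89 against 9.42, 9.65 and 9.80, 10.03-fold lower (log2 -3.33 ± 0.34, adjusted p = 6.9e-07). In the IGF system 3 of 15 members were higher and 2 lower. IGF2R, which clears IGF2, was 3.62-fold higher (log2 1.86 ± 0.26, adjusted p = 2.96e-05) and IRS2, an adaptor of the insulin and IGF receptors, 3.49-fold higher (log2 1.80 ± 0.27, adjusted p = 5.39e-05), while IGFBP3, which binds IGFs, was 8.06-fold lower (log2 -3.01 ± 0.29, adjusted p = 3.41e-07).

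Of 17 matrix proteases and inhibitors 4 were higher and 2 lower (4 lower without sox10-NC array 3), with PLAT, the tissue plasminogen activator, 7.21-fold higher (log2 2.85 ± 0.23, adjusted p = 2.92e-08) and ADAMTS9, a matrix protease, 5.67-fold lower (log2 -2.50 ± 0.29, adjusted p = 3.44e-06). Of 19 cyclin dependent kinase inhibitors and p53 targets 2 were higher and 3 lower, with GADD45G 9.48-fold higher (log2 3.24 ± 0.27, adjusted p = 4.72e-08) and SESN1, a stress-induced regulator of mTOR, 2.99-fold lower (log2 -1.58 ± 0.28, adjusted p = 0.000256). Of 8 cranial placode genes 1 was higher and 4 lower (2 lower without sox10-NC array 3), and of 2 measured mesoderm and endoderm genes both were lower, EOMES at least 1.23-fold (adjusted p = 0.000345) and MESP1 at least 1.30-fold (adjusted p = 0.00273), and both calls ended without background correction, with an offset of 50 and under median scaling. The MESP1 call also ended without sox10-NC array 2 or 3 or LSB array 1. Among the most abundant called genes, EIF3F, a translation initiation subunit, was 2.57-fold higher (log2 1.36 ± 0.21, adjusted p = 9.23e-05) and TMSB15B, a thymosin, 3.17-fold lower (log2 -1.67 ± 0.21, adjusted p = 1.02e-05).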
